A study of Mus musculus with 24 samples.

Results

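Ccng1 encodes cyclin G1, and its values were read from 1 row, transcript ENSMUST00000020576.7, of the 21960 transcript rows of a table of counts from mouse forelimb buds. The row was chosen by values in these same libraries: a large rise in RNA and in ribosome footprints when 1 copy of Rps6 is deleted in embryos with Trp53, few footprints for its RNA, and less RNA without Trp53. Those values are given here as a description, without a p-value for the row. A p-value is printed only for the deletion of Rps6 in embryos without Trp53. The pools without Trp53 were also among those by which the row was chosen. It was known from earlier results that RNA and footprints did not pass the test there. The printed p-values are therefore a description too, and not an independent test of the row. The gene name comes from the selection of this row.

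Cyclin G1 is an atypical cyclin whose gene is a direct transcriptional target of p53, the transcription factor encoded by Trp53. The protein binds B' regulatory subunits of the phosphatase PP2A and brings PP2A to Mdm2, the ubiquitin ligase that targets p53 for degradation, so it belongs to the feedback around p53. When the making of ribosomes is disturbed, free ribosomal proteins can bind Mdm2, and p53 accumulates. Rps6 codes for a component of the small ribosomal subunit.

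The libraries came from forelimbs at stage E10.5, and every embryo carried 1 floxed Rps6 allele (Rps6lox/+). The 4 genotypes were Rps6lox/+;Trp53+/+, called Rps6 WT, Trp53 WT; Prx1Cre;Rps6lox/+;Trp53+/+, called Rps6 het, Trp53 WT; Rps6lox/+;Trp53-/-, called Rps6 WT, Trp53 null; and Prx1Cre;Rps6lox/+;Trp53-/-, called Rps6 het, Trp53 null. Prx1Cre drives Cre recombinase in limb bud mesenchyme, so other cells of the limb keep both Rps6 copies, whereas the Trp53 null alleles are present in the whole embryo. The Rps6 WT embryos lacked Cre, so Cre itself and the lost Rps6 copy cannot be told apart. Each genotype had 3 pools, each made from the limb pairs of 2 embryos, and each pool gave 1 library of RNA depleted of ribosomal RNA and 1 library of ribosome-protected fragments (RPF, the footprints).

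The 12 RNA libraries held 14291854 to 29104669 counts and the 12 RPF libraries 7026056 to 16835045. Levels are in CPM, the count scaled to a library's total over the rows kept by a filter on low counts. TMM scaling of that total corrects for differences in composition. A count of 3, set here as a floor, equals 0.101 to 0.214 CPM for RNA and 0.174 to 0.439 CPM for the footprint libraries. Ccng1 had 505 to 9295 RNA counts and 47 to 820 RPF counts per library, far above that floor. Rps6 and Trp53 themselves, and markers of limb mesenchyme and of other cells, could not be checked, because 0 of the IDs matched a table of names. These are bulk samples, in which fewer cells of a type and less RNA per cell cannot be told apart.

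The stretch upstream of Ccng1 is shown because the row was followed for its dependence on p53. In RefSeq the gene lies on the minus strand of chromosome 11, from 40748552 to 40755309 (build GRCm38.p6). The 227 bases before its annotated bases, chr11:40755310-40755536, read 5′ to 3′ on the gene's strand as follows, with capitals for the stretch that best matches the p53 response element.
Ccng1 promoter: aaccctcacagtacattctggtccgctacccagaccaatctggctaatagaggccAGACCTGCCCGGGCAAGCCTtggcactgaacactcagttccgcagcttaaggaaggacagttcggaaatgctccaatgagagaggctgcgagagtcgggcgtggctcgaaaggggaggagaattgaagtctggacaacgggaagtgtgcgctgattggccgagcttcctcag

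The p53 response element was searched as a pair of adjacent half-sites of 10 bases with no spacer; it reads the same on both strands. The capitals, at chr11:40755462-40755481, lie 172 to 153 bases before the first annotated base of the gene and have 1 mismatch to the pair of half-sites. The half-site nearer the gene, GGGCAAGCCT, matches with 0 mismatches. Of 32851 promoter windows of the same kind, each of 300 bases, 8.36% hold a half-site with 0 mismatches, 0.0883% (29 windows) hold a pair with at most 1 mismatch, and 3 windows hold a pair with 0. The match describes letters in this window and no binding of p53 was measured.

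Ccng1 RNA was far higher in Rps6 het, Trp53 WT limbs than in the other genotypes. The 3 pools of Rps6 WT, Trp53 WT had 49.1, 47.1 and 50.1 CPM of RNA. The 3 pools of Rps6 het, Trp53 WT had 423, 478 and 435 CPM. Each pool of the second genotype thus lay above each pool of the first, and the groups did not overlap. How many of all rows also had groups that did not overlap was not counted, here or in the later comparisons. The means were 48.8 ± 1.54 CPM (SD, n = 3) and 445 ± 29.1 CPM, a log2 fold change of 3.19 ± 0.055 (SE), or 9.12-fold. Over all 14411 transcripts tested, 24.8% passed edgeR's adjusted p-value of 0.05 in this comparison.

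Without Trp53 the RNA level was low in both Rps6 genotypes. Rps6 WT, Trp53 null pools had 33.6, 35.9 and 34.6 CPM of RNA, and Rps6 het, Trp53 null pools had 38.7, 36.3 and 39.4 CPM. All 6 values lie below those of the 3 control pools with Trp53. The order of mean RNA levels was Rps6 het, Trp53 WT, then Rps6 WT, Trp53 WT, then Rps6 het, Trp53 null at 38.2 ± 1.61 CPM, then Rps6 WT, Trp53 null at 34.7 ± 1.19 CPM. No neighbours in this order overlapped in their pools, but the last step is small: the highest pool of the lowest genotype and the lowest pool of the next were 35.9 and 36.3 CPM.

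**Figure D1:**
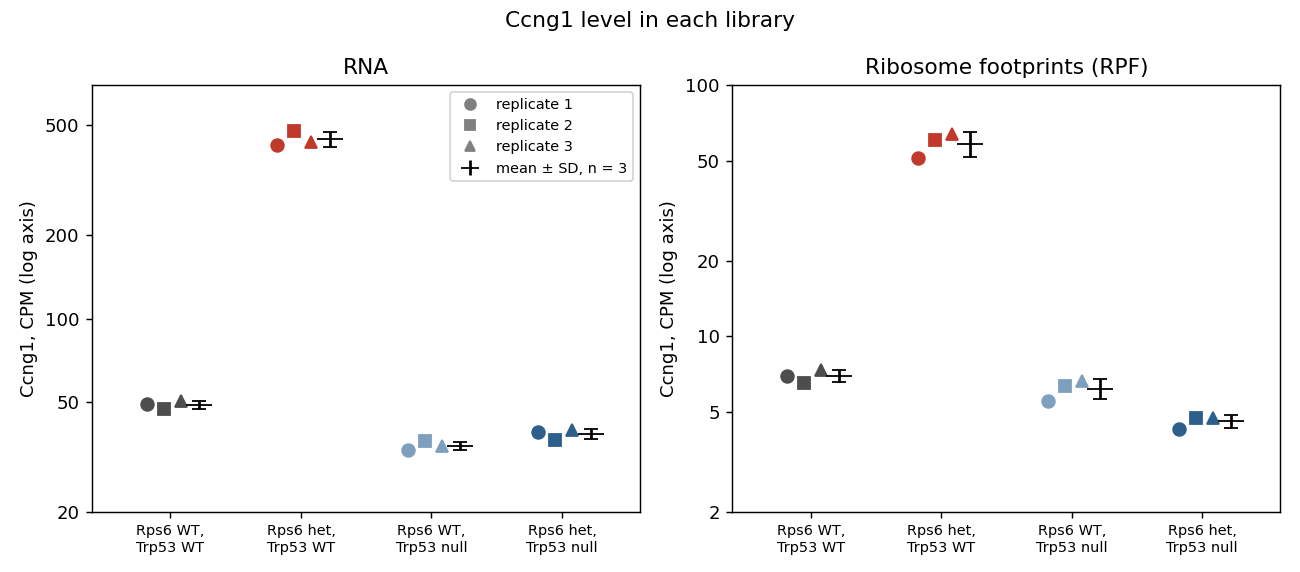
Ccng1 level in CPM on a log axis in each RNA library (left) and RPF library (right) of the 4 genotypes; symbols are pools and bars the mean ± SD of 3. The Rps6 het, Trp53 WT pools lie at 423 to 478 CPM of RNA and 51.1 to 63.6 CPM of RPF, above all others.

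The RPF level was likewise highest in Rps6 het, Trp53 WT limbs. The pools of Rps6 WT, Trp53 WT had 6.96, 6.54 and 7.30 CPM of RPF, from 59 to 126 counts each. Those of Rps6 het, Trp53 WT had 51.1, 60.2 and 63.6 CPM, from 411 to 820 counts. The groups did not overlap, and the log2 fold change was 3.06 ± 0.096 (SE), or 8.34-fold, in a comparison where 24.9% of the 12147 transcripts tested were called.

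In Trp53 null limbs the RPF level was 5.55, 6.35 and 6.63 CPM with Rps6 intact and 4.29, 4.73 and 4.74 CPM in Rps6 het. The last group was the lowest, below every pool of the other genotypes. Rps6 WT, Trp53 null and Rps6 WT, Trp53 WT, with means of 6.18 ± 0.565 and 6.93 ± 0.384 CPM (SD, n = 3), overlapped. With so few counts, sampling alone gives an expected spread of 11.0%, 11.6% and 14.2% of the mean in Rps6 WT, Trp53 WT, in Rps6 WT, Trp53 null and in Rps6 het, Trp53 null. The pools of these genotypes spread by 5.54%, 9.15% and 5.59%, less than that expectation, so the SD of 3 pools may understate the error of these footprint levels. In the Rps6 het, Trp53 WT pools the spread was 11.1% against an expected 4.37%.

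The deletion of 1 Rps6 copy without Trp53 asks whether Ccng1 responds when p53 is missing. Pools without Trp53 were used in choosing the row, so the p-values printed for this comparison are not an independent test. RNA was 1.10-fold higher in Rps6 het, Trp53 null, a log2 fold change of 0.14 ± 0.058 (SE, 95% interval 0.018 to 0.266), and did not pass edgeR's test (adjusted p = 0.385). RPF was lower by 0.43 on the log2 scale, with a change of −0.43 ± 0.154 (95% interval −0.75 to −0.11), and did not pass either (edgeR adjusted p = 0.224). RNA was higher in 3 of 3 and RPF lower in 3 of 3 pools than every Rps6 WT, Trp53 null pool. Of all transcripts tested, 0.0694% were called in this comparison in RNA and 0.906% in RPF. Neither interval, which is not adjusted for the number of rows, includes no change. The RPF interval reaches as far as 1.68-fold lower. The upper bounds of both lie far below the rise seen with Trp53.

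The Rps6 change with Trp53 less the change without it was 3.05 ± 0.079 (SE) on the log2 scale in RNA, the 12th highest of 14411 rows, and 3.49 ± 0.185 in RPF, the 6th highest of 12147. In RNA 9.55% and in RPF 7.06% of rows were called for this difference. Both Rps6 comparisons enter it, so it repeats the values above on a single scale. The difference was larger in RPF than in RNA by 0.44 ± 0.191 (SE), in a comparison where 0.071% of rows were called.

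**Figure D2:**
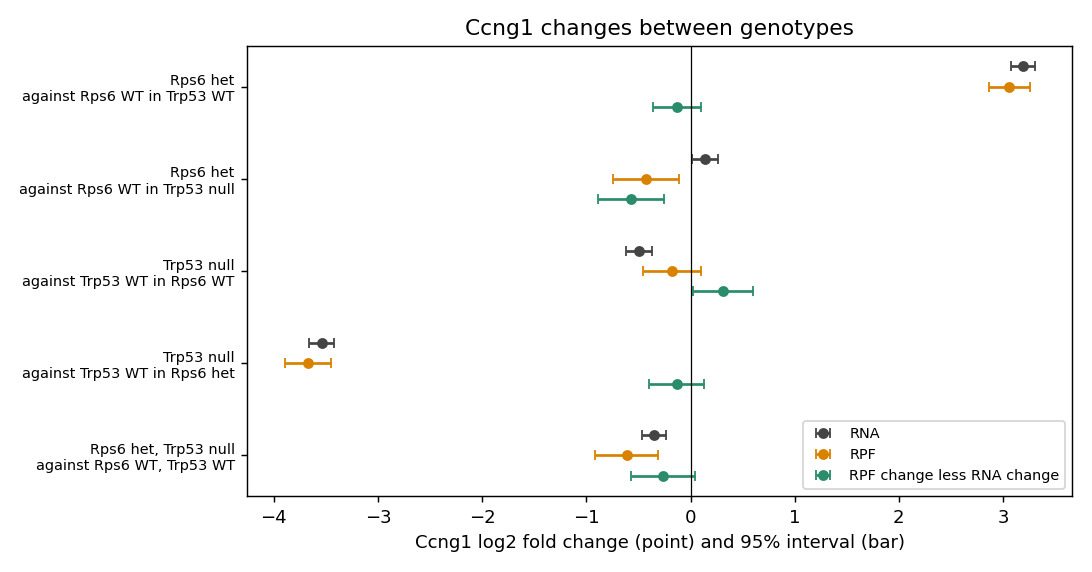
Ccng1 log2 fold change with its 95% interval in 5 comparisons between genotypes, for RNA, RPF and the RPF change less the RNA change. RNA and RPF lie at 3.19 and 3.06 for Rps6 het with Trp53, and between −0.61 and 0.14 in the comparisons without the Rps6 het, Trp53 WT pools.

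Dependence on Trp53 with Rps6 intact was modest and was read mainly in RNA. Mean RNA was 48.8 CPM with Trp53 and 34.7 CPM without it, a log2 fold change of −0.49 ± 0.058 (SE), or 1.41-fold more with Trp53, and the pools did not overlap. In this comparison 0.118% of transcripts, 17 rows, were called in RNA, and Ccng1 had the 184th lowest change of 14411 rows. Counting only the 4646 rows at least as abundant as Ccng1 in control RNA, its change was the third lowest. In RPF the change was −0.18 ± 0.136 (SE, 95% interval −0.46 to 0.10) with overlapping pools, and 0.0741% of rows were called. Without replicate 1 of Rps6 WT, Trp53 null it was −0.11. The RPF interval includes no change and overlaps the RNA interval, −0.62 to −0.37.

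In Rps6 het limbs the same contrast was much larger. Mean RNA was 445 CPM with Trp53 and 38.2 CPM without it, a log2 fold change of −3.54 ± 0.056 (SE), or 11.6-fold. Mean RPF was 58.3 and 4.59 CPM, a log2 fold change of −3.67 ± 0.108, or 12.7-fold. Neither pair of groups overlapped, in comparisons with 13.3% of RNA rows and 15.1% of RPF rows called. Ccng1 had the 6th lowest change in both RNA and RPF. Among the 326 rows with at least its RNA level in Rps6 het, Trp53 WT limbs, and among the 3450 with at least its RPF level there, its change was the lowest.

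Limbs that lacked Trp53 and had 1 Rps6 copy deleted were below the control level. Against Rps6 WT, Trp53 WT, their RNA change was −0.35 ± 0.056 (SE) and their RPF change −0.61 ± 0.148 on the log2 scale. Their pools lay below all control pools in both, where 0.18% of RNA rows and 1.68% of RPF rows were called. These 4 genotypes share control pools between comparisons, so the changes are not independent of each other.

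Footprints per RNA were compared pool by pool, as the RPF level divided by the RNA level of the same pool. The name of the deposited table links footprints to coding sequences and RNA to the word total, which may mean entire transcripts. If so, the size of the ratio also depends on these lengths, which were not known. Between genotypes the lengths cancel only if each genotype uses the same form of the transcript, which was not measured. The ratio was 0.142, 0.139 and 0.146 in Rps6 WT, Trp53 WT and 0.121, 0.126 and 0.146 in Rps6 het, Trp53 WT. It was 0.165, 0.177 and 0.192 in Rps6 WT, Trp53 null and 0.111, 0.130 and 0.120 in Rps6 het, Trp53 null. The Rps6 WT, Trp53 null pools were the highest, above every other pool, and the pools of both Rps6 het genotypes overlapped with each other.

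**Figure D3:**
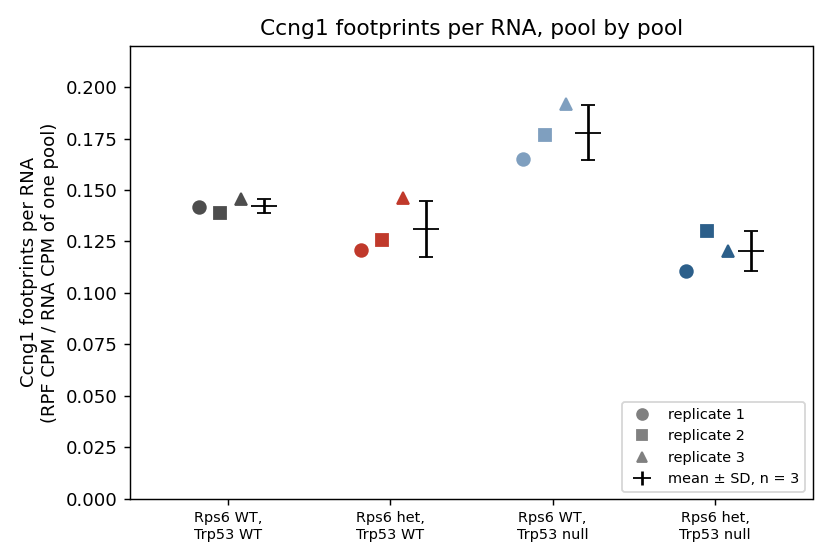
Ccng1 footprints per RNA (RPF CPM divided by RNA CPM of the same pool) in the 4 genotypes, with the mean ± SD of 3 pools. The Rps6 WT, Trp53 null pools lie at 0.165 to 0.192 and all other pools at 0.111 to 0.146.

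With Trp53, the rise of footprints kept close to the rise of RNA. The RPF change less the RNA change, tested over all transcripts as translational efficiency (TE), was −0.13 ± 0.113 (SE, 95% interval −0.36 to 0.10) for Rps6 het against Rps6 WT, with overlapping pools, and 1.17% of the 14080 rows were called. The interval thus leaves room for up to 1.29-fold fewer footprints per RNA after a 9.12-fold rise of the RNA. Without replicate 3 of Rps6 het, Trp53 WT the TE change was −0.23, and without replicate 1 it was −0.08. In Rps6 het limbs, Trp53 null against Trp53 WT gave a TE change of −0.13 ± 0.129, again with overlapping pools, and 0.163% of rows were called. Without replicate 3 of Rps6 het, Trp53 WT it was −0.04, and without replicate 1 of Rps6 het, Trp53 null −0.07.

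Without Trp53, footprints per RNA were lower in Rps6 het. The mean ratio was 0.178 ± 0.013 (SD, n = 3) with Rps6 intact and 0.120 ± 0.0097 in Rps6 het, and the pools did not overlap. The share of all rows with such pools was not counted. The TE change was −0.57 ± 0.155 (SE, 95% interval −0.89 to −0.25), or 1.49-fold lower, lower in 3 of 3 pools. It had an unadjusted p of 0.00107 and did not pass the test over all transcripts (edgeR adjusted p = 0.246), where 0.199% of rows, 28 in number, were called. The row was chosen partly for few footprints per RNA, so the p-values of this TE change describe it and are not an independent test. With both libraries of a lysate kept together by a term for the pool, a block, the change was −0.57 ± 0.154, the edgeR adjusted p = 0.165, and 57 rows were called. The change was the 327th lowest of 14080 rows and the 7th lowest of the 5827 rows with at least as much RNA in Rps6 WT, Trp53 null. The RPF side of this value rests on 47 to 78 counts per library.

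With Rps6 intact, the TE change for Trp53 null against Trp53 WT was 0.31 ± 0.140 (SE, 95% interval 0.022 to 0.599), with pools that did not overlap. How many of all rows had pools without overlap was not counted in any TE comparison. In this comparison edgeR called 0 of 14080 rows, and 731 had an unadjusted p under 0.05. DESeq2 and limma-voom also called 0, edgeR without the filter called 12, and edgeR on the compared genotypes alone called 1. For Rps6 het, Trp53 null against Rps6 WT, Trp53 WT the TE change was −0.26 ± 0.150, the pools did not overlap, and 0.0284% of rows were called.

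Ccng1 had few footprints for its RNA in every genotype. Of the 12116 rows that passed the filter on low counts in both library kinds, 1.97% had a lower ratio in Rps6 WT, Trp53 WT, where the median row had a ratio of 0.896. The share of rows below Ccng1 was 1.71% in Rps6 het, Trp53 WT, 2.89% in Rps6 WT, Trp53 null and 1.48% in Rps6 het, Trp53 null. These shares are not per length, so the lengths may bear on the place of a row. Ccng1 stayed near the low end in all 4 genotypes, and this is among the values for which the row was chosen.

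Among all rows, the Rps6 change with Trp53 was the 9th highest of 14411 in RNA and the 5th highest of 12147 in RPF. No row that was at least as abundant as Ccng1 in control limbs had a higher change, out of 4646 such rows in RNA and 9020 in RPF. Over the 12116 rows tested in both kinds, 5 rows, Ccng1 included, had changes at least as large as those of Ccng1 in both. A log2 change over 2 in both kinds was seen for 16 rows, Ccng1 included. These places and counts rest on fitted changes, which for a row near 0 in control limbs depend on the small count that the fit adds; ENSMUST00000058472.12, which placed above Ccng1 in both kinds, was at 0 CPM of RPF in control limbs.

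**Figure D4:**
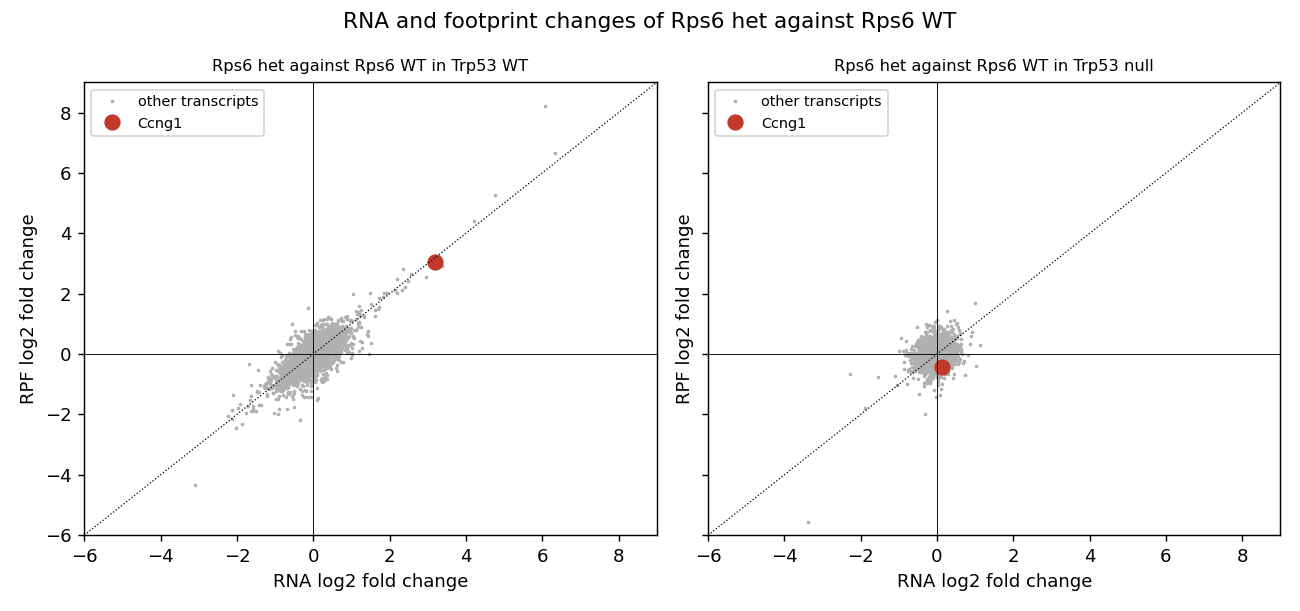
RPF against RNA log2 fold change of Rps6 het against Rps6 WT for 12116 transcripts, with Trp53 (left) and without it (right); the dotted line marks equal changes. Ccng1 lies at 3.19 in RNA and 3.06 in RPF on the left, and at 0.14 and −0.43 on the right.

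The rows most like Ccng1 were sought by Pearson's r of log2 CPM over the 12 RNA and over the 12 RPF libraries, averaged, among 12115 other rows. The closest was ENSMUST00000058472.12, with r = 0.992 in RNA and 0.986 in RPF. It had 5.19 ± 0.25 CPM of RNA and 3.13 ± 0.469 CPM of RPF (SD, n = 3) in Rps6 het, Trp53 WT, and was at 0 CPM of RPF in the 9 other RPF libraries. Next came ENSMUST00000053855.7, with r = 0.986 in RNA and 0.988 in RPF, whose mean RNA was 21.5 ± 2.36 CPM in Rps6 het, Trp53 WT against 2.76 ± 0.258 CPM in the control genotype.

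The rows most opposed to Ccng1 were ENSMUST00000000476.14, with r = −0.962 in RNA and −0.963 in RPF, and ENSMUST00000039568.10, with −0.936 and −0.979. The second had 4.06 ± 0.527 CPM of RPF in Rps6 het, Trp53 WT against 9.27 ± 0.715 CPM in the control genotype. These correlations rest largely on the distance of the 3 Rps6 het, Trp53 WT pools from the rest. Without those pools, over 9 libraries of a kind, r in RNA was 0.613 for ENSMUST00000058472.12, whose RNA levels there are near 0. In RPF that row was at 0 CPM in all 9, so no r can be given. For ENSMUST00000053855.7, r was −0.08 in RNA and 0.791 in RPF. It was 0.628 and 0.640 for ENSMUST00000000476.14, no longer negative, and −0.27 and −0.36 for ENSMUST00000039568.10. A mean r above 0.9 was reached by 125 rows and one below −0.9 by 74 rows.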

How the data were processed

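Forelimb buds of mouse embryos of 4 genotypes were profiled as RNA and as ribosome footprints, with 3 pools per genotype. The authors deposited 1 table of raw counts, whole numbers per transcript, for 24 libraries. Bowtie2, UMI-tools, GRCm38 and mm10 are named in the submitters' processing notes, with no role or version. The counting tool, annotation release and filters are not given in the sources used here.

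Counts were fitted with edgeR 4.0.16 (quasi-likelihood F test) in R 4.3.3, with all 4 genotypes in one model per library kind, and in one model of both kinds for TE. TMM scaling was done within each library kind, and filterByExpr kept rows (minimum count 10, minimum total 15). Benjamini-Hochberg adjustment ran over all rows tested, and a row with an adjusted p under 0.05 counts as called. SE values come from the F statistic. The main TE model held no term for the pool, so the RPF and RNA libraries of a pool entered it as independent. With that term, 393 rows instead of 165 were called in TE for Rps6 with Trp53. Footprint-per-RNA ratios use TMM-scaled CPM. The code was tested on simulated data.

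Ccng1, the contrasts and the gene lists were chosen with earlier results of these data known. The named rows are Ccng1 and the 2 rows with the highest and the 2 with the lowest mean correlation to it. Lists of p53 targets, of cyclin G1 partners and of cell markers were not run, because 0 IDs matched names. RefSeq promoter sequences matched Ccng1 by symbol.

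Replicates of a group differed by more than sampling noise (chi-square per degree of freedom 1.78 to 17.1 over 24 pairs). Pools are separate embryos. Deviations of the RPF and RNA libraries of one pool, which share a lysate per the labels' protocols, correlated at 0.112 to 0.384 over 12 pools. The printed 95% intervals come from the edgeR fits and include the spread between pools, whereas the floors are a fixed count and measure no error. Alternatives were DESeq2 size factors, no filter, DESeq2 1.42.0, limma-voom (limma 3.58.1), blocks, fits of the compared genotypes alone and leaving out each pool.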

Additional observations from a re-analysis of the deposited data

Results flagged for a closer look

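The Rps6 change of Ccng1 differed between embryos with and without Trp53, by an interaction term over all transcripts. The difference was 3.05 on the log2 scale in RNA and 3.49 in RPF. The row was chosen for this pattern, so the difference is a description of it.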

How the results depend on the processing

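All 18 log2 fold changes of Ccng1 (RNA, RPF and TE in 6 contrasts) kept their sign in each alternative run, and none of the tested changes for Rps6 het without Trp53 crossed an adjusted p of 0.05. Over those alternatives the adjusted p ranged from 0.295 to 0.691 in RNA, 0.148 to 0.436 in RPF and 0.0807 to 0.743 in TE. Leaving out 1 pool at a time moved the Rps6 change with Trp53 to between 3.13 and 3.22 in RNA and between 2.98 and 3.15 in RPF. With the replicate number as a replicate block, the Rps6 change without Trp53 was 0.14 in RNA and −0.43 in RPF, and with the pool as a replicate block it was −0.57 in TE. Blocks changed none of these 3 calls of the row. Same-numbered pools of different genotypes had a mean correlation of deviations of 0.0377 in RNA and 0.000589 in RPF over 18 pairs each. Differently numbered pools had −0.0189 and −0.000256 over 36 pairs each. With the replicate block more rows were called in RNA in all 6 contrasts, 4078 against 3580 for Rps6 with Trp53. Whether pools of the same number share a source of variation was not tested.

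How many of all rows were called for Rps6 without Trp53 depended on the fit: 10 in RNA, but 39 by DESeq2, 47 without replicate 2 of Rps6 het, Trp53 null and 4 without its replicate 1 or in the fit of the compared genotypes alone; 110 in RPF, but 285 without a filter and 60 without replicate 1 of Rps6 WT, Trp53 null; 28 in TE, but 63 by DESeq2 and 0 by edgeR in the fit of the compared genotypes alone or without replicate 2 of Rps6 WT, Trp53 null (622 and 609 rows at an unadjusted p under 0.05). For Trp53 null with Rps6 intact, 6 to 252 rows were called in RNA and 4 to 48 in RPF. For Rps6 with Trp53 it was 2211 to 4078 in RNA and 58 to 393 in TE, and for the difference between backgrounds 641 to 2000 in RNA, 513 to 1091 in RPF and 3 to 44 in TE. For Trp53 in Rps6 het it was 1151 to 2342 in RNA and 14 to 77 in TE, and for Rps6 het, Trp53 null against control 10 to 117 in RNA, 117 to 387 in RPF and 1 to 32 in TE. Of 26 recomputed shares of rows below Ccng1, 19 moved, most of them when only rows at least as abundant were ranked. RPF counts of 47 to 126 outside Rps6 het, Trp53 WT limit what footprints of Ccng1 can show there.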
